A study of Sus scrofa with 2 samples.

Results

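Of the 29837 cell barcodes deposited for a pair of porcine antral follicles, 9072 carried fewer than 2000 detected genes and less than 7% of their unique molecular identifiers (UMIs, counted RNA molecules) from 13 mitochondrial protein genes. These few-gene barcodes were chosen by measured values, their gene number and mitochondrial share, so neither quantity is a finding here. The study kept barcodes with 2000 to 5000 genes under the same mitochondrial limit and also removed predicted doublets. The few-gene barcodes were left out of its clusters. Follicle AF75 held 2610 few-gene barcodes of 14289 deposited, or 18.3% (95% exact binomial interval 17.6 to 18.9%), and follicle AF76 held 6462 of 15548, or 41.6% (40.8 to 42.3%). The 9362 and 7843 barcodes with 2000 to 5000 genes under that limit served as the comparison, with predicted doublets left in. The 1985 and 935 barcodes with fewer than 2000 genes but 7% or more mitochondrial UMIs served as a second reference.

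Both follicles came from 1 Landrace × Yorkshire pig aged 210 days, which had received pregnant mare serum gonadotropin, a hormone that drives follicle growth. Healthy follicles wider than 7 mm were punctured, and the somatic cells in the flushed fluid were sequenced on the 10x Genomics droplet platform, with 1 library per follicle. AF75 and AF76 shared genotype, age and treatment, so they differ in the labels only as follicle 1 and follicle 2. With 1 library each there is no replicate error and no test between groups, and all intervals cover counting error only. The libraries held 125409747 and 127414267 UMIs. They had 56 barcode sequences in common, and 5 of these were few-gene barcodes in both.

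Granulosa cells line the follicle and make inhibin, estradiol and matrix. Cumulus granulosa cells surround the oocyte, and mural granulosa cells line the wall. A transcript for a secreted or membrane protein is translated at the endoplasmic reticulum (ER), to which a hydrophobic stretch of the new protein directs the ribosome, while transcripts of cytosolic and nuclear proteins are translated on free ribosomes. A barcode marks 1 droplet, and whether a few-gene barcode held a small cell, a damaged cell or free RNA cannot be told apart from counts alone.

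The coding starts of 3 genes show the feature by which transcripts were grouped, and were chosen after their values were seen as abundant examples. KIT, the receptor for KIT ligand, is on chromosome 8 from 41402363 to 41402429 on the plus strand. LOX, a secreted enzyme that crosslinks collagen, is on chromosome 2 from 125606906 to 125607010 on the minus strand. RRBP1, a protein of the rough ER that binds ribosomes, is on chromosome 17 from 26095194 to 26095298 on the minus strand. All 3 stretches are coding exon in Sscrofa11.1, read 5′ to 3′ from the start codon with RefSeq gene models, and capitals mark the codons of the 10 residues of highest mean hydropathy.
KIT: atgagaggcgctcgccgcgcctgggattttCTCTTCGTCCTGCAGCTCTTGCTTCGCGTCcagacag
LOX: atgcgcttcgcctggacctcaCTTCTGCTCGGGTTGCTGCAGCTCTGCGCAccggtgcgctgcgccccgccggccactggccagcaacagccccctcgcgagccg
RRBP1: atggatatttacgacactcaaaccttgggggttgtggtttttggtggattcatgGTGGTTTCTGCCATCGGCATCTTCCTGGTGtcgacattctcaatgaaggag
In AF75, KIT stood at 90.9 CPM (UMIs of the gene over all UMIs of the set, on the usual per-million scale) against 200.6 CPM in the comparison barcodes. In AF76 it stood at 76.3 against 214.3 CPM. LOX was at 243.1 against 513.2 CPM in AF75 and at 196.0 against 580.3 CPM in AF76. RRBP1 was at 363.7 against 725.1 CPM and at 318.7 against 823.5 CPM. All 3 transcripts were thus lower in the few-gene barcodes of both follicles, with AF75 ratios of 0.453, 0.474 and 0.502, and AF76 ratios of 0.356, 0.338 and 0.387.

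Gene number, by which the barcodes were chosen, is given as a description. The most populated bin of few-gene barcodes was 400 to 599 genes, with 720 barcodes in AF75 and 2115 in AF76, and the bins thinned out to 100 barcodes at 1600 to 1799 genes in AF75 and to 204 in the last bin of 200 genes below the limit in AF76. Median gene number was 749.5 (lowest 216) in AF75 and 682 (lowest 125) in AF76. Median UMI totals were 1260 and 1160, against 11254.5 and 13902 in the comparison barcodes, and the lowest total in either follicle was 500. The few-gene barcodes therefore held 3.66% and 8.06% of all UMIs of their libraries. Just inside the limit, the last 76 and 114 barcodes, within 100 genes of it, had medians of 5085.5 and 4633.5 UMIs. Just outside it, the first 90 and 136 barcodes had medians of 5530.5 and 5172 UMIs.

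**Figure D1:**
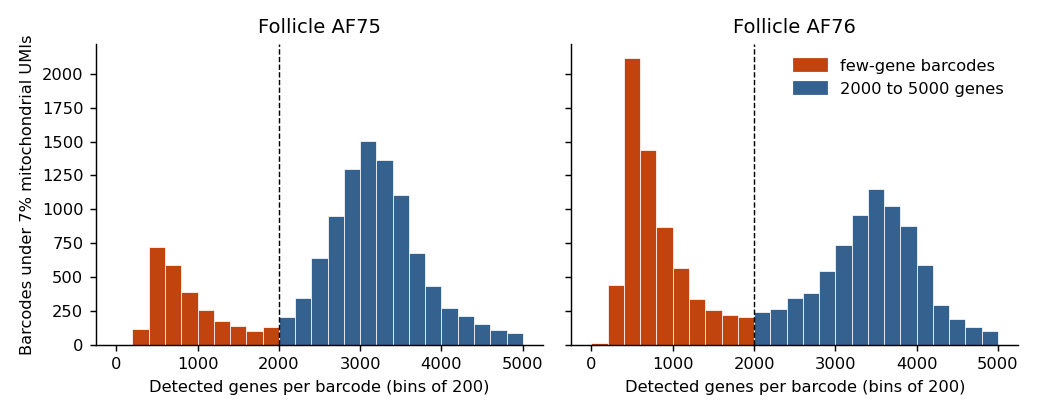
Number of barcodes under 7% mitochondrial UMIs (y axis) by detected genes in bins of 200 (x axis), with the few-gene barcodes in orange, the comparison barcodes in blue and the 2000-gene limit dashed. The few-gene peak at 400 to 599 genes holds 720 barcodes in AF75 and 2115 in AF76, and the barcode number is lower in the bins next to the limit in both follicles.

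At equal depth the sets held nearly equal numbers of genes. When each barcode was thinned at random to 500 UMIs, few-gene barcodes had a median of 364 genes in AF75 and 360 in AF76, and comparison barcodes had 362 in each follicle. The quartiles overlapped almost fully, at 352 to 373 against 351 to 373 genes in AF75 and at 349 to 370 against 350 to 375 genes in AF76. At 1000 UMIs, which left out 944 and 2660 few-gene barcodes, the medians were 620 against 630 genes and 611 against 629 genes. Few-gene barcodes were also not dominated by single transcripts, since the top gene took a median of 3.61% and 2.85% of UMIs against 3.33% and 3.15% in the comparison barcodes.

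The summed profile was that of granulosa cells. ENSSSCG00000014540, TMSB10, GSTA1 and INHA were the 4 most abundant genes of the few-gene barcodes in both follicles, and all 4 were within the top 5 of the comparison barcodes. INHA, the alpha subunit of inhibin, reached 11548 CPM in AF75 and 11386 CPM in AF76, against 19854 and 23176 CPM in the comparison barcodes. The 17 measured granulosa identity genes summed to 20145 and 17076 CPM, or 0.62 and 0.51 of their comparison level. The 13 mitochondrial transcripts, part of the selection, summed to 18509 and 15216 CPM against 26850 and 29914 CPM.

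Of 9702 genes with at least 200 UMIs in 1 of the sets of each follicle, 7 were at least 2-fold higher in the few-gene barcodes of both follicles, which is 0.0722% of genes tested, and 42 were at least 2-fold lower, which is 0.433%. A gene could enter through the set where it was high, and the comparison sets were far deeper. They held 111226504 and 108920601 UMIs against 4586076 and 10264849, so the counts of higher and lower genes cannot be weighed against each other. With a limit of 50 UMIs, 39 genes were higher and 92 lower of 11192 tested. The median gene did not shift, with log2 ratios of -0.02 in AF75 and 0.01 in AF76. The quartiles lay at -0.31 and 0.20 in AF75 and at -0.33 and 0.26 in AF76. The count of lower genes was 181 when few-gene barcodes were limited to fewer than 1500 genes, and 8 of 6515 tested when the comparison was limited to 2000 to 3000 genes.

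The lower genes mostly encoded membrane or secreted proteins. ERN1, the ER-stress sensor IRE1, stood at 1.96 against 5.39 CPM in AF75 and at 2.34 against 6.18 CPM in AF76. GLA, the lysosomal enzyme alpha-galactosidase A, was at 29.7 against 71.5 CPM and at 26.1 against 72.2 CPM, which is 2.41-fold and 2.77-fold lower. PDE3B, a membrane-bound cyclic nucleotide phosphodiesterase, was at 6.98 against 16.5 CPM and had a ratio of 0.39 in AF76. ADCY8, an adenylyl cyclase of the cell membrane, was at 3.49 against 8.45 CPM and at 3.21 against 7.92 CPM. COL17A1, a transmembrane collagen, came first when genes were ranked by the follicle with the smaller difference, at 0.17 in each follicle, but rested on 2 and 5 few-gene UMIs (intervals 0.0208 to 0.629 and 0.0547 to 0.400). TMEM59L and PHTF1 were also 2-fold or more lower, at 6 and 13 and at 5 and 12 few-gene UMIs, as were 3 genes without a symbol. Further down the list stood the receptors KIT and MET, the secreted ENPP2, which makes lysophosphatidic acid, NPC1, which exports cholesterol from lysosomes, and the basement membrane chain COL4A5.

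The 7 higher genes were mixed. HBB, beta-globin, reached 3802 CPM in AF75 and 10060 CPM in AF76 against 2.47 and 45.6 CPM, and ENSSSCG00000007978 reached 1374 and 4279 CPM against 5.57 and 12.7 CPM. Barcodes with 5% or more globin UMIs, 12 in AF75 and 48 in AF76, held 99.8% and 99.6% of these globin UMIs, and without them HBB was at 3.51 against 2.47 CPM and 38.7 against 45.6 CPM. FABP5, a fatty acid carrier, was at 10.2 against 3.58 CPM and 13.2 against 4.78 CPM, and the 10 barcodes with most FABP5 held 87.2% and 53.3% of its few-gene UMIs. CFD, complement factor D, was found in 7 few-gene barcodes of AF75 and 42 of AF76. ENSSSCG00000034846 was the most widespread, found in 438 and 681 few-gene barcodes, at 110.1 against 42.4 CPM and 74.3 against 31.8 CPM. PPIF, a mitochondrial prolyl isomerase, and TRAF3IP3 made up the rest, at 18 and 98 and at 25 and 77 few-gene UMIs.

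Transcripts were then grouped by the protein they encode, a grouping chosen after these ratios were seen. Of the 14550 genes with a translated RefSeq protein, globin and mitochondrial genes left out, 2697 had a hydrophobic stretch near the N terminus, as signal peptides and signal anchors do, 2201 had only an internal stretch long enough to cross a membrane, and 9652 had neither. In the tested genes of the first class, the median log2 ratio was -0.47 in AF75 and -0.45 in AF76 (1090 genes, of which 941 and 845 lay below 0). In the second class it was -0.33 and -0.32 (993 genes, 776 and 730 below 0), and in genes with neither stretch it was 0.05 and 0.08 (6418 genes, 2830 and 2678 below 0). The grouping is rough, since INHA, GLA, HSPA5 and FAS, which are secreted, lysosomal, ER or membrane proteins, fell among the genes with neither stretch. Of the 42 genes called lower, 32 had a matched protein, and 26 of those belonged to the first or second class.

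**Figure D2:**
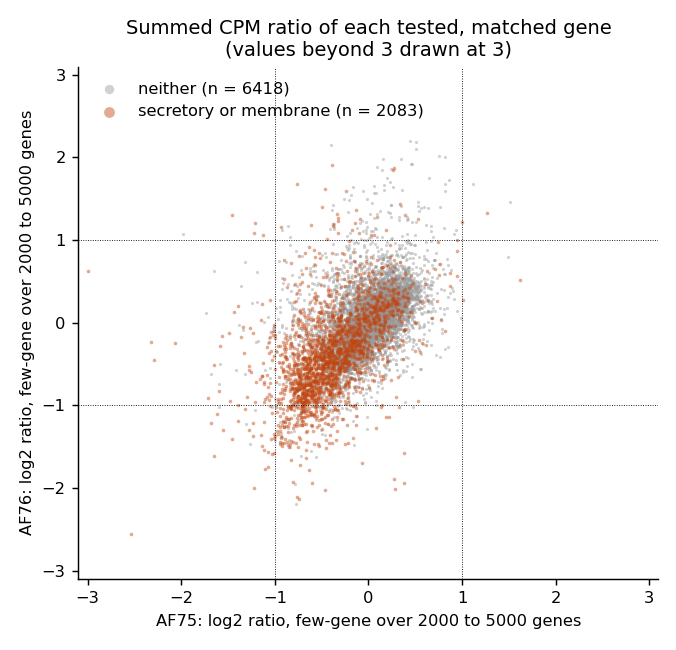
Log2 ratio of summed CPM, few-gene over comparison barcodes, in AF75 (x axis) and AF76 (y axis) for each tested gene with a matched protein, where orange marks the 2083 genes with either hydrophobic stretch and grey the 6418 with neither. The orange points lie toward the lower left, with medians of -0.40 and -0.39, and the dotted lines mark a 2-fold ratio.

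The 2 hydrophobic classes together, called secretory or membrane transcripts below, took 18.5% of matched UMIs in the few-gene barcodes of AF75 against 24.5% in the comparison barcodes, and 16.9% against 23.8% in AF76. The second reference, few-gene barcodes with a high mitochondrial share, stood between them at 23.8% and 20.5%. Medians also differed with gene length, and were lower for long than for short genes in both kinds of transcript. Among genes with neither stretch, those spanning under 10 kb had medians of 0.17 and 0.24 on the log2 scale. Those of 100 kb or more had -0.10 and -0.13. Secretory or membrane transcripts had -0.33 and -0.20 for short genes and -0.42 and -0.54 for long genes. The part of gene length in the shift was not tested.

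Barcode by barcode, the shift was broad. The median share of secretory or membrane transcripts was 16.3% (quartiles 13.3 to 21.2%) in the few-gene barcodes of AF75 and 15.6% (13.0 to 18.9%) in AF76, against 24.3% (23.0 to 25.9%) and 23.6% (22.1 to 25.2%) in the comparison barcodes. In AF75, 1832 of 2610 few-gene barcodes, or 70.2% (68.4 to 71.9%), lay below the 1st percentile of the comparison barcodes. In AF76 these were 4398 of 6462, or 68.1% (66.9 to 69.2%). With every barcode thinned to 500 UMIs the medians were 16.3% against 24.5% and 15.7% against 23.6%, and 1547 and 3625 few-gene barcodes, or 59.3% and 56.1%, lay below the comparison's 1st percentile.

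**Figure D3:**
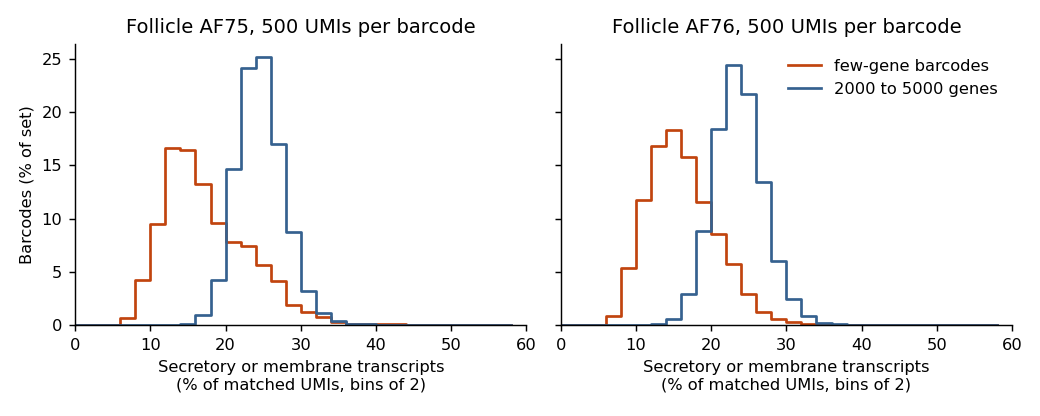
Share of secretory or membrane transcripts among matched UMIs (x axis, bins of 2%) in barcodes thinned to 500 UMIs, as a percentage of each set (y axis), with few-gene barcodes in orange and comparison barcodes in blue. The few-gene medians of 16.3% and 15.7% lie below the comparison medians of 24.5% and 23.6%, and the few-gene curves have a tail under the comparison peak.

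This share differed among the few-gene barcodes themselves. Those from 1000 up to 2000 UMIs had medians of 15.3% in AF75 and 14.7% in AF76, and the 220 and 394 barcodes with 4000 or more UMIs had 23.8% and 19.6%. It also followed the mitochondrial share: few-gene barcodes under 1% mitochondrial UMIs had medians of 13.8% and 14.6%, those from 1 to 2% had 15.9% and 15.4%, those from 2 to 4% had 19.6% and 17.4%, and those from 4 to 7% had 23.4% and 20.3%. In the comparison barcodes the medians over the same bins spanned a narrower range, from 24.0 to 24.7% in AF75 and from 23.3 to 24.1% in AF76, also lowest in the bin under 1%. The mitochondrial share was part of the selection, so these values are a description. At the mitochondrial limit itself, the 29 and 28 few-gene barcodes with 6.5 to 7% had medians of 24.1% and 20.5%, and the 23 and 27 just past it, with 7 to 7.5%, had 23.4% and 21.3%.

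Gene lists drawn up for this tissue gave the same picture by function, and 16 of the 28 lists with measured genes, the mitochondrial genes of the selection left out, had higher sums in the few-gene barcodes of both follicles. ER chaperones and other genes of the unfolded protein response summed to 3990 against 5991 CPM in AF75 and 3285 against 6350 CPM in AF76. Here and for the lists below a gene counts as higher or lower by the side of 1 on which its ratio fell, whatever its size. Of all 9702 tested genes, 37.4% were higher and 38.9% were lower in both follicles by this rule. By it, 13 of the 16 genes were lower in both follicles, although none passed 2-fold in both. CALR, an ER calcium-binding chaperone, was at 644.8 against 1067 CPM and 534.1 against 1161 CPM. HSPA5, the ER chaperone BiP, was at 478.8 against 787.0 CPM and 458.3 against 1060 CPM, and HSP90B1, its HSP90 counterpart, at 464.2 against 810.9 CPM and 292.2 against 797.7 CPM. PDIA6, an ER disulfide isomerase, had ratios of 0.61 and 0.47. The other 3 genes of this list encode proteins of the nucleus or cytosol and had ratios above 1: ATF4 had 1.23 and 1.14, DDIT3 had 1.14 and 1.61, and CHAC1 had 1.08 and 1.14. The list did not split cleanly by site, since ASNS, TRIB3 and XBP1, also of the nucleus or cytosol, were among the 13 lower. ASNS had log2 ratios of -0.19 in AF75 and -0.092 in AF76. The intervals of CHAC1 in both follicles and of DDIT3 in AF75 (0.892 to 1.43) include 1.

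Hormone and matrix genes followed. The 9 inhibin and activin pathway genes summed to 0.61 and 0.50 of the comparison level, with 5 lower and 1 higher in both follicles. INHBA, the activin A subunit, was at 1754 against 2036 CPM in AF75 and 277.8 against 523.0 CPM in AF76, while INHBB had ratios of 1.02 (0.911 to 1.14) and 1.64 (1.47 to 1.83). Of 12 tested matrix genes, 10 were lower in both follicles: COL4A2, a basement membrane collagen, had ratios of 0.59 and 0.57, LAMC1, a laminin chain, had 0.53 and 0.36, and FBN2, a fibrillin, had 0.58 and 0.26. The exceptions were COL18A1, at 1.29 (0.872 to 1.84) and 1.45 (1.01 to 2.03), and COL12A1, at 0.76 (0.559 to 1.00) and 1.26 (1.08 to 1.45). Cholesterol synthesis genes, most of whose products sit in the ER membrane, were lower for 15 of 18 tested, and higher for none, in both follicles, and none passed 2-fold in both. SQLE had ratios of 0.55 and 0.36, MSMO1 had 0.60 and 0.42, and the cytosolic enzyme HMGCS1 had 0.89 and 0.68.

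Steroid hormone genes split. The list summed to 4209 against 3685 CPM in AF75 and 3817 against 3784 CPM in AF76. Higher in both follicles were FDX1, the mitochondrial electron carrier for side-chain cleavage, with ratios of 1.29 and 1.06, STAR, which moves cholesterol into mitochondria, with 1.39 and 1.14, and CYB5A with 1.43 and 1.25. Lower in both were the enzymes POR, with 0.64 and 0.51, and CYP19A1, aromatase, with 0.59 and 0.77. The receptor LHCGR was also lower in both, with 0.68 and 0.72. FSHR, the receptor for follicle-stimulating hormone, had ratios of 1.21 (0.573 to 2.28, on 10 few-gene UMIs) and 3.66 (2.805 to 4.73).

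Transcripts of the cytosolic translation machinery were higher. All genes with neither hydrophobic stretch had 1.08 and 1.09 of their comparison share of matched UMIs. Those spanning under 10 kb had median log2 ratios of 0.17 and 0.24. Medians were 0.14 and 0.36 for ribosomal protein genes, 0.17 and 0.39 for translation factors and 0.21 and 0.22 for nuclear-encoded oxidative phosphorylation genes. Whether these lists rose beyond other short genes of that class was not tested. Of 61 tested ribosomal protein genes, 59 were higher in both follicles and RPL4 was lower in both, and the list summed to 103358 against 94373 CPM in AF75 and 131861 against 103141 CPM in AF76. RPL10 had ratios of 1.07 and 1.29, and RPS12 had 1.07 and 1.13. Of 18 translation factor genes, 15 were higher in both, EEF1A1 and EIF1 among them with ratios of 1.06 and 1.31 and of 1.30 and 1.27. Cytoskeletal genes summed to 1.17 and 1.20 of the comparison level, led by TMSB10, which binds actin monomers, at 14990 against 11631 CPM and 14207 against 10808 CPM. Nuclear-encoded genes of oxidative phosphorylation were higher for 52 of 68 tested and lower for 9, with list ratios of 1.13 and 1.12. Glycolysis was higher for 10 of 13 genes, GAPDH with 1.19 and 1.08.

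As list sums, heat shock and apoptosis genes lay slightly above the comparison level in both follicles, unlike the unfolded protein response genes above. In AF75 their ratios were of the size seen for the translation machinery. Single genes differed more: 4 of 10 heat shock genes were higher in both follicles and 2 lower, and 8 of 18 tested apoptosis genes were higher and 5 lower. Heat shock genes summed to 1.12 and 1.09 of the comparison level, with HSPB1 at 1.27 and 1.18 and HSPA8 at 0.91 and 0.90. Apoptosis genes summed to 1.14 and 1.07. BAX, a pore-forming activator of the mitochondrial route, had ratios of 1.17 and 1.18, GADD45A had 1.26 and 1.17, APAF1 had 0.90 and 0.63, and the death receptor FAS, a membrane protein, had 0.33 and 0.49. FAS was scarce, at 1.09 against 3.30 CPM in AF75 and 0.974 against 1.98 CPM in AF76. Immediate early genes summed to 1.01 and 1.16. For chromatin genes the sum and the median differed in sign: the list summed to 1.08 and 1.17 of the comparison level while its median log2 ratio was -0.18 and -0.08, since small abundant proteins such as HMGN2, with 1.40 and 1.65, stood above regulators such as SMARCA4, with 0.83 and 0.71. The interferon list summed to 1.04 and 1.19, with ISG15 at 1.31 and 1.55.

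The few-gene barcodes with a high mitochondrial share had another profile. Their ribosomal protein sum was 52444 and 62810 CPM, below the comparison level, where that of the low-mitochondrial few-gene barcodes lay above it. These CPM values count all UMIs, and the mitochondrial transcripts alone took 248326 and 303048 CPM there. Splicing factor genes still summed to 8288 and 8020 CPM, above the comparison's 5851 and 6114 CPM and above the 5911 and 5722 CPM of the low-mitochondrial set. Genes with neither hydrophobic stretch also ran the other way with length, at -0.51 and -0.48 for spans under 10 kb and 0.37 and 0.29 for 100 kb or more on the log2 scale.

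**Figure D4:**
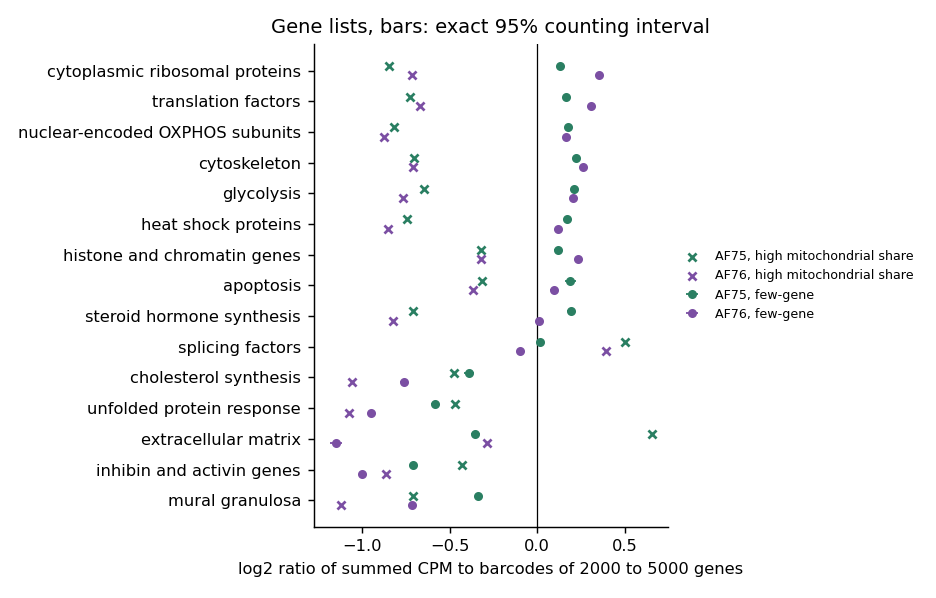
Log2 ratio of the summed CPM of 15 gene lists to the comparison barcodes, for few-gene barcodes (circles, bars of the exact 95% counting interval, mostly hidden by the symbol) and few-gene barcodes with a high mitochondrial share (crosses), in AF75 (green) and AF76 (purple). Ribosomal protein genes lie above 0 for circles, at ratios of 1.10 and 1.28, and below 0 for crosses, while inhibin and activin genes lie below 0 for both. The crosses count all UMIs, of which mitochondrial transcripts took 248326 and 303048 CPM in that set, and this lowers the CPM of all other genes there.

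Markers of other cell types were rare in the few-gene barcodes. The 20 leukocyte genes summed to 81.8 against 17.8 CPM in AF75 and 125.2 against 27.9 CPM in AF76. C1QA and C1QB, complement genes of macrophages, had 37 and 41 few-gene UMIs in AF75 and 95 and 113 in AF76, and PTPRC, the pan-leukocyte antigen CD45, had 6 and 70. Only 3 and 53 few-gene barcodes carried at least 3 leukocyte UMIs, 0.115% (0.0237 to 0.336%) and 0.820% (0.615 to 1.07%), and in the much deeper comparison barcodes the shares were 0.320% and 0.752%. Of the leukocyte list, 2 markers were at 0 in AF75 and 0 in AF76. Stromal collagens were higher in AF76, with COL1A2 at 11.5 against 1.58 CPM and COL1A1 at 9.64 against 1.48 CPM, but the theca and stroma list as a whole summed to 0.84 of the comparison level in each follicle because INSL3, at 207.6 against 307.1 and 291.2 against 496.4 CPM, outweighed the rest; 4 of its 12 markers were at 0 in AF75. Endothelial genes summed to 44.7 against 50.8 CPM and 50.8 against 58.7 CPM, with 2 and 1 of 9 at 0, and platelet genes to 87.0 against 97.6 CPM and 78.8 against 103.6 CPM, with 2 of 5 at 0 in each. Oocyte genes summed to 6.98 against 5.91 CPM and 5.94 against 5.23 CPM, with 9 and 5 of 11 at 0. The part of these cells in the profile above was not tested.

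Graph clustering divided the few-gene barcodes into 5 groups in AF75 and 9 in AF76, numbered by size (10 and 13 groups at a resolution of 1.0), and the genes named below define the groups and are no test of them. In AF75, group 3, with 274 barcodes, had 11907 CPM of cumulus markers against 1543 CPM in the other few-gene barcodes and is called cumulus-like. Mural markers, at 9796 against 7752 CPM, and cycling markers, at 381.0 against 89.5 CPM, were higher in group 3 as well. SLC10A4, SOX9 and PTGS2, the prostaglandin synthase of cumulus expansion, led the group. SOX9 had only 38 UMIs in 15 barcodes and PTGS2 had 44 in 11, with 38.6% in 1 barcode. Group 2, with 447 barcodes, was led by LENG8, ZNF407, OGT, EGFR, DST and KIT, and had a median mitochondrial share of 3.75% and a median secretory or membrane share of 24.0%, the level of the comparison barcodes. Groups 0 and 1, with 1259 and 618 barcodes, had 15.3% and 13.8% and mitochondrial shares of 1.28% and 0.64%. STAR, RGN and MGARP led group 1. Group 0 had few leading genes of its own: CCL21 with 126 UMIs came almost wholly from 1 barcode, which held 98.4% of them. Group 4 was the 12 globin barcodes, red blood cell-like, with HBB, HBM, ALAS2 and AHSP, a median of 258 genes and 81.0% globin UMIs.

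In AF76, the 3 largest groups held 2300, 1995 and 1562 barcodes. Group 0 had the lowest secretory or membrane share, a median of 13.3%, and its leading genes differed little from the rest, with IDI1 at 502.2 against 285.3 CPM. Group 1 had 18.1% and had TM4SF1, SCG2, INSL3 and AREG among its leading genes, the last an EGF-like ligand of mural granulosa cells, at 3749 against 1174 CPM. TNFAIP6 of the cumulus list was a leading gene too, at 170.1 against 45.9 CPM, while that list summed to 316.5 against 348.4 CPM. Group 2 had a median of 17.2% ribosomal protein UMIs and was led by CRABP2, TESC, ID3 and S100A1, and its CEMIP-cell markers summed to 685.7 against 318.5 CPM. Its leading genes were also high in the 379 comparison barcodes with 10 or more UMIs of the CEMIP list, where CRABP2 was at 185.8 against 3.44 CPM in the other comparison barcodes and S100A1 at 714.8 against 70.2 CPM. Group 3, with 255 barcodes and a median of 3587 UMIs, was CEMIP-cell-like, with CEMIP, a hyaluronan-degrading protein, at 854.1 against 48.4 CPM and CCDC80 at 1215 against 81.1 CPM.

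Among the smaller AF76 groups, group 5, with 95 barcodes, was cycling-like, with UBE2C at 737.9 against 5.05 CPM and KIF11, a spindle motor, at 135.3 against 1.58 CPM. Group 6, with 90 barcodes, joined globin barcodes with leukocyte markers: its red cell list stood at 459865 CPM and its leukocyte list at 3482 CPM, 783 UMIs in all, and LYZ came from 1 barcode only. Group 7, with 25 barcodes, had stromal genes among its leading genes, with COL1A2 and MGP each at 1697 CPM against 7.71 and 11.9 CPM. CYP17A1, INSL3 and STAR of the theca and stroma list were not among them. Granulosa identity genes stood at 17276 against 17076 CPM and mural markers at 5265 against 6725 CPM, so the group also carried the granulosa profile. Group 8, with 10 barcodes, was leukocyte-like and carried lymphocyte genes, among them GNLY and GZMB of cytotoxic granules and the T cell chain CD3E, with 144, 41 and 28 UMIs. GNLY, GZMB and CD3E had no UMI in any other few-gene barcode of AF76.

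Group 4 of AF76 stood apart from all of these. Its 130 barcodes had a median of 744 UMIs, and HIST1H3E, HIST3H2A, PCDH8, LRAT, ARC and NANOS1 were among its leading genes, each with no more than 12 UMIs in all other few-gene barcodes together. ARC, an immediate early gene of neurons, had 89 UMIs in 49 of the 130 barcodes, and HIST3H2A, a histone gene, had 56 in 43. HIST1H3E and NANOS1 each had a single exon in the RefSeq models. Single-exon genes took 1.64% of matched UMIs in group 4 and between 0.322% and 0.518% in the other 8 groups. The highest group of AF75 had 0.454%. None of the 10 leading genes is in a cell type marker list, so the group is left without a name.

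**Figure D5:**
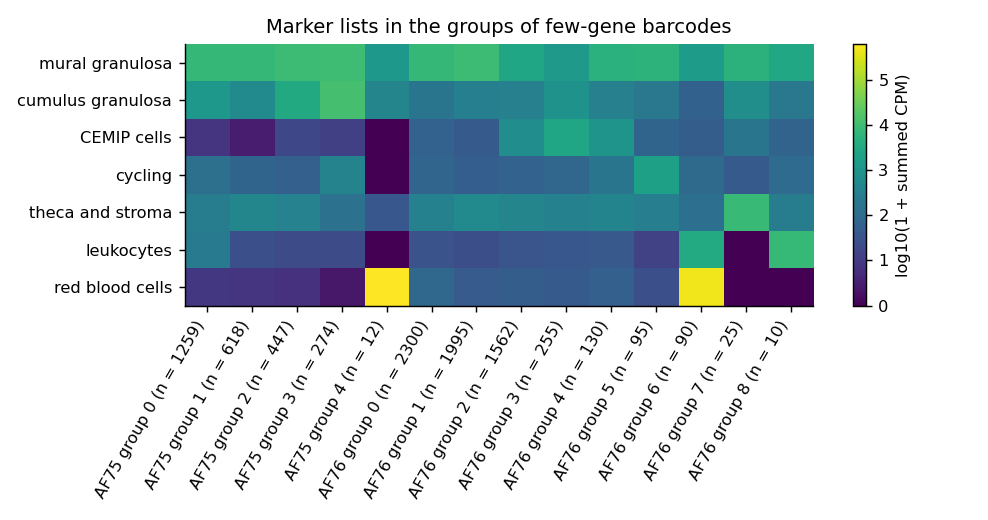
Summed CPM of 7 marker lists, as log10(1 + CPM), in each of the 14 groups of few-gene barcodes, with the number of barcodes in brackets. Red blood cell markers are brightest in AF75 group 4 and AF76 group 6, leukocyte markers in AF76 groups 6 and 8, and cumulus markers in AF75 group 3, at 11907 CPM.

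The follicles were then compared within the few-gene barcodes. The 5401 genes considered had 200 or more few-gene UMIs in either follicle, so a gene could enter through the follicle where it was high, and the ratios are a description. CCDC80 had the largest ratio of AF76 to AF75, with 1810 UMIs against 6, or 176.3 against 1.31 CPM, and in the comparison barcodes it was at 50.7 against 0.647 CPM. CRABP2, a retinoic acid carrier, had 418 UMIs against 2, CEMIP 1191 against 14, SLC40A1, the iron exporter, 249 against 3, and ENSSSCG00000029289 251 against 2. The lowest ratios were those of ENSSSCG00000024568, with 17 UMIs in AF76 against 517 in AF75, ARPP21 with 11 against 330, and SHAS2, a hyaluronan synthase, with 18 against 404. FGF13 and TNFAIP6 followed, TNFAIP6, which links hyaluronan in the expanding cumulus, at 103.9 against 1077 CPM in the few-gene barcodes and 229.2 against 924.0 CPM in the comparison barcodes.

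The AF76 excess of CEMIP-cell genes in the few-gene barcodes depended on the comparison. The 3 measured genes summed to 377.8 against 122.1 CPM, 3.09-fold higher (2.99 to 3.21), when the comparison held 2000 to 5000 genes, but to a log2 ratio of -0.57 against barcodes with 2000 to 3000 genes. In AF75 the list rested on 37 few-gene UMIs, at 8.07 against 3.17 CPM. The cycling list summed to 134.5 against 142.6 CPM in AF75 (ratio 0.94, 0.869 to 1.02) and to 96.2 against 71.0 CPM in AF76 (ratio 1.35, 1.27 to 1.45).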

How the data were processed

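The authors aligned the 10x Genomics reads of each follicle to Sscrofa11.1 and counted UMIs with CellRanger 6.0.2, and deposited raw counts for the barcodes it called as cells. The values are whole numbers, 1 library per follicle. Members and lists were chosen with earlier results of these data known. For this work, UMIs were summed over each set of barcodes per follicle and divided by the set's total (CPM), with exact Poisson intervals, and ratios with exact conditional intervals (95%, scipy 1.17.1). No replicate test was possible. Of 22342 genes, 7356 had no symbol in the files and 1042 of these were named from the gene table given. Genes counted as tested had 200 or more UMIs in either set of each follicle, mitochondrial genes left out. The rule on named genes took the 10 largest and 10 smallest ratios past 2-fold ranked by the follicle nearer 0, the 4 most abundant genes of each of 30 lists, markers of other cell types with 10 or more UMIs, the 10 leading genes of each group at 50 CPM or more, the 10 most abundant genes and the 5 largest and smallest ratios between follicles. Other list genes given as exceptions or contrasts, and KIT, LOX, RRBP1, MET, ENPP2, NPC1 and COL4A5, were picked after their values were seen. Proteins were translated from the RefSeq models of the same build, and a hydrophobic stretch needed a mean Kyte-Doolittle value of 2.2 over 10 residues within the first 35, or 1.9 over 19 residues further in. Groups came from scanpy 1.11.5 (10000 UMIs per barcode, log scale, 2000 variable genes, 30 components, Leiden resolution 0.5) for each follicle. Doublets were not scored among the few-gene barcodes. UMIs are 3′ tags with no length scaling. The ratio and call rule were tested on simulated data. Alternatives covered gene, mitochondrial and UMI limits, the comparison set, scaling, thinning and clustering settings. Some items are not reported here.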

Additional observations from a re-analysis of the deposited data

Results flagged for a closer look

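Among the 4 most abundant genes of each list, 9 had a ratio of few-gene to comparison barcodes above 1 in one follicle and below 1 in the other, with counting intervals clear of 1 in both. The difference between follicles was not tested, since each is 1 library. TNFAIP6, a hyaluronan-linking protein of the expanding cumulus, had ratios of 1.17 in AF75 and 0.454 in AF76, the widest gap. FST, which binds activin, went the other way, with 0.676 and 1.21, as did the transcription factor FOSL2, with 0.810 and 1.10. The mural cytokine IL33 had 1.24 and 0.983, GSTA1, a glutathione transferase, 1.22 and 0.974, and IDI1 of isoprenoid synthesis 1.05 and 0.807. DDX5, an RNA helicase, had 1.05 and 0.776, ATP5F1C, a subunit of ATP synthase, 1.08 and 0.941, and CYP11A1, which cleaves the cholesterol side chain, 1.03 and 0.917.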

How the results depend on the processing

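Under the alternatives run, few-gene barcodes kept a lower secretory or membrane share than the comparison barcodes, and 2 list ratios changed sign. The share of barcodes was 16.2% and 38.1% for fewer than 1500 genes, 17.3% and 40.3% at a 5% mitochondrial limit, and 19.4% and 42.2% at 10%. Genes at least 2-fold higher and lower numbered 11 and 181 for fewer than 1500 genes, 3 and 8 against 2000 to 3000 genes, 11 and 89 for the mean of per-barcode CPM, 39 and 92 at 50 UMIs and 68 and 581 at a fold of 1.5; lower genes numbered 72 and 18 at limits of 5% and 10%. Of the 42 lower genes, 41 were shared with the fewer-than-1500 setting and 3 with the 2000 to 3000 setting, where 6515 genes were tested. At 1000 UMIs the median gene numbers were 620 and 611 in few-gene and 630 and 629 in comparison barcodes. Groups numbered 10 in AF75 and 13 in AF76 at resolution 1.0. The log2 ratio of CEMIP-cell genes in AF76 reversed to -0.57 against 2000 to 3000 genes, and that of red blood cell genes in AF76 to -0.25 without globin barcodes, an alternative added after seeing the data. Stricter hydropathy limits, also added, gave medians of 11.4% against 17.8% and 10.8% against 17.3%. The cause of these shifts was not tested. Limits: each follicle is 1 library from the same pig, so follicle, library and dissociation cannot be told apart. For the 2-fold calls, a gene with no UMI in a set was given a floor of 3 UMIs, and all other counts were used as they were.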
